A study of Sus scrofa with 6 samples.

Results

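Aminoacyl-tRNA synthetases join each amino acid to its tRNA. They were followed here in IPEC-J2 cells, an epithelial cell line from the small intestine of the pig, after treatment with chenodeoxycholic acid (CDCA), a primary bile acid. The genes were taken as all gene IDs whose annotated description contains the words "tRNA synthetase". This gave 42 of the 31908 gene IDs in the deposited table, which take 136 of its 63041 lines. A gene has 1 or more lines with no ID of their own, and these were taken here as its listed transcripts. Of the 42, 21 encode cytosolic enzymes and 17 encode mitochondrial enzymes, which bear a symbol ending in 2 or the word mitochondrial in their description. The other 4 are not synthetases and were described separately: AIMP1 and AIMP2, scaffold proteins of the synthetase complex, and AARSD1 and PRORSD1, which carry domains related to synthetase editing domains.

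The 6 libraries came from 3 samples of IPEC-J2 cells given PBS (CON) and 3 samples treated with 50 μM CDCA, each for 24 h. All cells were of 1 established line, and the study speaks of biological replicates, but the labels do not say whether the samples were separate cultures, so p-values measure only the spread between these samples. Expression is given in TPM, the transcripts of a gene per 1000000, in which the length of a transcript is already taken into account, so that levels of different genes can be set side by side. The study gives read totals of its libraries, but the number of reads behind the value of a gene is unknown, and so no counting interval was given. The cells were not sorted, and in RNA from a whole culture, fewer cells that express a gene and less RNA per cell cannot be told apart.

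Synthetases fall into class I and class II by the fold of their catalytic domain. In the cytosol of animal cells, a set of synthetases sits in a multi-synthetase complex held together by the scaffold proteins AIMP1, AIMP2 and EEF1E1, while the others work outside it. Mitochondria mostly use a separate set of enzymes, encoded in the nucleus and imported, to charge the tRNAs that read the mitochondrial genome. Glycyl- and lysyl-tRNA synthetase are exceptions, since GARS1 and KARS1 each supply both compartments. Many cytosolic synthetase genes are known targets of ATF4, the transcription factor of the amino acid response.

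Of the 42 genes, 33 averaged 1 TPM or more across the 6 libraries and were tested: 18 cytosolic, 11 mitochondrial and all 4 associated. The test was limma on log2(TPM + 1), fitted over all 8708 genes past the same limit, with Benjamini-Hochberg adjustment (FDR). A gene was said to rise or fall where its FDR was under 0.05. The fold change (log2FC) is on the log2(TPM + 1) scale, which understates changes of low genes. Of the 33 genes, 14 rose and 8 fell, where 53.2% of all tested genes changed in either direction. In each library the TPM of all lines came to between 351770 and 366073 of a possible 1000000, so a value covers the listed transcripts of a gene and can miss others. Of this total, the 13 mRNAs encoded in mtDNA took 13.8% to 15.0% in the control libraries but 2.90% to 3.45% after CDCA, which leaves a different share to all other genes, and values on totals without these mRNAs are given where they changed a call of a named gene. With such totals, the median log2FC over all tested genes was -0.08, against 0.05 on the TPM as deposited. The epithelial markers EPCAM (122 ± 3.7 TPM in CON, SD, n = 3), KRT8 and KRT18 were expressed in all libraries, whereas CDH1 was listed under 1 TPM and KRT19 was not found by its symbol. Summed over the 5 markers found, the TPM was 855.7 to 912 in CON and 619.6 to 674 in CDCA, and the markers did not move together. CLDN1 fell, from 474 ± 28 to 202 ± 12 TPM (SD, n = 3 each), while EPCAM rose to 160.2 ± 11 TPM (limma FDR 0.0015). KRT18 rose from 65.6 ± 0.90 to 75.1 ± 3.9 TPM (limma FDR 0.013), and had no call on totals without the mtDNA-encoded mRNAs (limma FDR 0.41), on which KRT8 was lower (-0.27, limma FDR 0.0067). Of 9 markers of immune, endothelial and fibroblast cells, 7 averaged under 1 TPM over the 6 libraries, including PTPRC, which did not exceed 0.01 TPM. The summed TPM of the 9 markers was 3.73 to 5.45 in CON and 7.29 to 8.13 in CDCA. CD68 was at 5.33, 4.75 and 4.44 TPM after CDCA against listed values of 0, 0 and 0.26 TPM, and entered the test only through the CDCA libraries. PECAM1 fell. The part of these markers in the results was not tested.

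The cytosolic genes mostly rose after CDCA treatment. Of the 18 tested, 12 rose, 1 fell and 5 did not pass the test, while 29.3% of all tested genes rose and 23.9% fell. Thus 66.7% of the tested cytosolic genes rose. On totals without the mtDNA-encoded mRNAs, 11 of the 18 rose and 4 fell, where 1750 of all 8707 tested genes rose and 2781 fell. The calls over all genes were thus split otherwise: 38.6% of all calls were rises there, against 55.0% on the deposited TPM. The median log2FC of the 18 genes was 0.55, against 0.05 for all tested genes. For 5 genes, WARS1, CARS1, SARS1, GARS1 and IARS1, the log2FC was also over 1; 3.51% of all tested genes rose by that much.

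**Figure D1:**
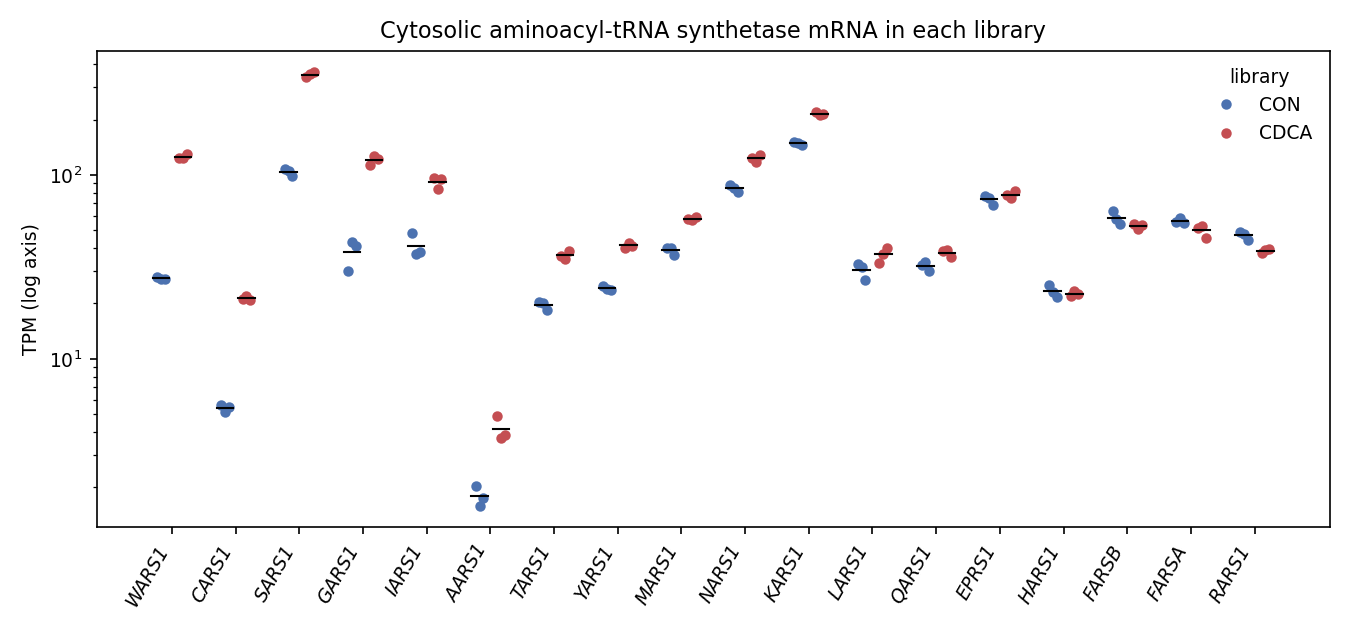
TPM (log axis) of the 18 tested cytosolic genes in the 3 CON and 3 CDCA libraries, ordered by log2FC from left to right; each point is a library and each black bar the mean of a group. In WARS1, CARS1, SARS1 and GARS1, on the left, the CDCA means lay at 3.16 to 4.57 times the CON means, while HARS1 and FARSB, towards the right, overlapped between the groups.

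WARS1 (ENSSSCG00000002516), which charges tRNA with tryptophan and is also known to be induced by interferon, had the largest rise of all 33 tested genes. It was listed at 27.8, 27.25 and 27.2 TPM with PBS, and treated libraries gave 123, 123 and 129.6 TPM. The groups lay far apart, with little spread inside either. The ratio of the means was 4.57, and the log2FC of 2.15 (with an SE of 0.04 and a limma FDR of 1.8e-06) ranked 39 from the top among all 8708 tested genes.

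SARS1 (ENSSSCG00000006835), the seryl-tRNA synthetase, which also serylates the tRNA that later carries selenocysteine, was listed at 108, 105 and 98.5 TPM among controls versus 339.9, 354.5 and 361 TPM after treatment. Every CDCA library was more than 3 times as high as every CON library, and the log2FC was 1.75 (with an SE of 0.05 and a limma FDR of 2.5e-06). In CON, KARS1 was the most abundant synthetase mRNA and SARS1 the next. In CDCA, SARS1 came first, and it held 23.3% ± 0.49 (SD, n = 3) of the summed TPM of the cytosolic genes, against 12.1% ± 0.090 (SD, n = 3) in CON.

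CARS1 (ENSSSCG00000012857), the cysteinyl-tRNA synthetase, was listed at 5.58, 5.13 and 5.46 TPM in the control libraries, against 21.2, 21.9 and 20.9 TPM with CDCA. It was the second lowest of the 18 tested cytosolic genes in CON, and its log2FC was 1.81 (with an SE of 0.06 and a limma FDR of 3.7e-06). GARS1 (ENSSSCG00000016677), the glycyl-tRNA synthetase of both compartments, was listed at 30.1, 43.3 and 41.3 TPM with PBS, and treated libraries gave 113, 127 and 122 TPM. CON replicate 1 lay below the other control libraries, but the groups were well apart and the log2FC was 1.65 (with an SE of 0.13 and a limma FDR of 0.00011).

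IARS1 (ENSSSCG00000008068), the isoleucyl-tRNA synthetase, is the only one of these 5 genes whose enzyme belongs to the multi-synthetase complex. It was listed at 48.45, 37.0 and 38.25 TPM among controls versus 96.7, 84.25 and 95.5 TPM after treatment, with no overlap between the groups. Its log2FC was 1.15 (with an SE of 0.11 and a limma FDR of 0.00022), and 1.00 (limma FDR 0.00048), just under the limit, on totals without the mtDNA-encoded mRNAs.

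Another 7 cytosolic genes rose by less. AARS1 (alanine) rose from 1.79 ± 0.22 TPM to a mean of 4.16 ± 0.64 TPM (SD, n = 3 each), a ratio of 2.32 and a log2FC of 0.88 (limma FDR 0.0012); with its low level, the pseudocount of 1 TPM holds the fold change down, and with 0.1 TPM it was 1.16. TARS1 (threonine) rose from 19.7 ± 1.1 TPM to a mean of 36.7 ± 1.8 TPM and YARS1 (tyrosine) from 24.2 ± 0.62 TPM to a mean of 41.4 ± 1.3 TPM, with log2FC values of 0.86 and 0.75. MARS1 (methionine), NARS1 (asparagine) and KARS1 (lysine) formed a group of near-equal rises, with ratios of 1.49, 1.46 and 1.45 and limma FDRs of 0.00013, 0.00022 and 5e-05. KARS1 was listed at 144.7 to 151 TPM in CON and at 211 to 219.7 TPM in CDCA. QARS1 (glutamine) had the smallest rise, from 32.0 ± 1.8 TPM to a mean of 37.7 ± 1.6 TPM, a log2FC of 0.23 (limma FDR 0.015). It did not pass the test on totals without the mtDNA-encoded mRNAs (0.08, limma FDR 0.26) or with CDCA replicate 1 left out (0.22, limma FDR 0.052).

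RARS1 (arginine) was the only tested cytosolic gene that fell. It was listed at 49.2, 47.6 and 44.2 TPM in the control libraries, against 37.7, 38.9 and 39.5 TPM with CDCA, a log2FC of -0.27 (with an SE of 0.05 and a limma FDR of 0.0046). The remaining 5 did not pass the test. HARS1 (histidine) was at 23.4 ± 1.8 TPM in CON and 22.6 ± 0.69 TPM in CDCA, with a 95% interval of the log2FC from -0.20 to 0.11. FARSA and FARSB encode the paired subunits of phenylalanyl-tRNA synthetase, and their log2FC values lay close to each other, at -0.17 (limma FDR 0.061) and -0.13 (limma FDR 0.13). On totals without the mtDNA-encoded mRNAs, HARS1, FARSA and FARSB passed the test as lower in CDCA, at -0.19 (limma FDR 0.036), -0.32 (limma FDR 0.0044) and -0.28 (limma FDR 0.012). FARSA and FARSB also did so with libraries scaled to the same median ratio, FARSA with CDCA replicate 2 left out (-0.21) and FARSB with CON replicate 3 left out (-0.19, limma FDR 0.045). Other libraries moved them the other way: FARSA was at -0.11 (limma FDR 0.13) without CDCA replicate 3, and FARSB at -0.07 (limma FDR 0.30) without CON replicate 1. A further gene ID, described as a like form of the beta subunit and not counted here, could share reads with FARSB.

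The complex held genes of every behaviour. Of the 8 enzymes known as members, 7 were tested: 4 rose (IARS1, MARS1, KARS1 and QARS1), 1 fell (RARS1) and 2, EPRS1 and LARS1, did not pass the test, beside 29.3% of all tested genes that rose and 23.9% that fell. Their median log2FC was 0.27, against 0.86 for the 11 tested cytosolic genes outside the complex, of which 8 rose and 0 fell on the deposited TPM, while HARS1, FARSA and FARSB were lower on totals without the mtDNA-encoded mRNAs. The difference between the medians was not tested. EPRS1, which charges both glutamate and proline and was among the most abundant, was listed at 77.0, 75.35 and 68.4 TPM with PBS, and treated libraries gave 77.4, 74.8 and 82.1 TPM. The groups overlapped, and the 95% interval of its log2FC ran from -0.06 to 0.23. LARS1 (leucine) was listed at 33.0, 31.7 and 26.8 TPM among controls versus 33.3, 37.35 and 40.3 TPM after treatment. Its log2FC of 0.27 missed the threshold (limma FDR 0.055), but passed it with CON replicate 1 (0.33, limma FDR 0.047) or CDCA replicate 1 (0.34, limma FDR 0.035) left out, with its highest transcript alone (0.23, limma FDR 0.024) and with the TPM rescaled to 1000000 (0.30, limma FDR 0.039). It was smaller on totals without the mtDNA-encoded mRNAs (0.12, limma FDR 0.32), without CON replicate 3 (0.18, limma FDR 0.13) and without CDCA replicate 3 (0.21, limma FDR 0.16).

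The scaffold genes of the complex went in opposite directions. AIMP1, which is also cut to a secreted cytokine, was listed at 25.0, 21.2 and 25.9 TPM in the control libraries, against 30.2, 31.8 and 30.3 TPM with CDCA. It rose by a log2FC of 0.35 (limma FDR 0.0093), which was 0.20 (limma FDR 0.073) on totals without the mtDNA-encoded mRNAs. AIMP2 was listed at 24.55, 26.4 and 25.5 TPM with PBS, and treated libraries gave 16.85, 18.3 and 18.15 TPM. It fell, with a log2FC of -0.50 (limma FDR 0.00039). In both genes the groups did not overlap, as was so for 33.7% of all tested genes with the CDCA libraries higher and for 27.8% with them lower. EEF1E1 had a mean under 1 TPM and was not tested. AARSD1, an editing factor that removes serine from wrongly charged alanine tRNA, fell from 53.0 ± 0.85 TPM to a mean of 41.0 ± 1.3 TPM. PRORSD1, named here from its description, was listed at 3.11, 3.86 and 0.36 TPM among controls versus 4.73, 3.79 and 4.94 TPM after treatment, and with that spread did not pass the test (limma FDR 0.16).

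The catalytic classes had like counts, and their difference was not tested. Of the 8 tested cytosolic class I genes 6 rose, with a median log2FC of 0.65, and of the 9 tested class II genes 6 rose, with a median of 0.54. Of all tested genes 29.3% rose. EPRS1 holds a domain of each class and was in neither count.

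**Figure D2:**
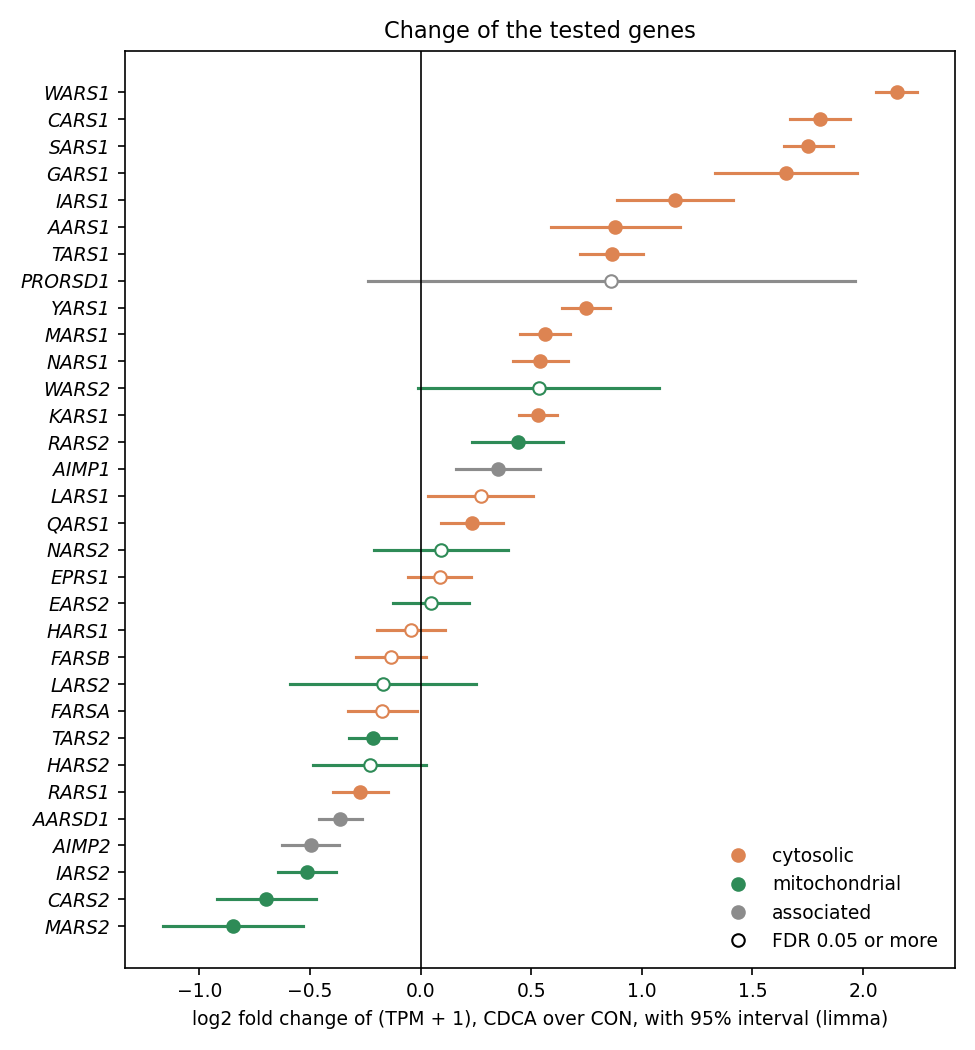
log2FC of (TPM + 1), CDCA over CON, of all but 1 of the 33 tested genes, with 95% intervals from limma; colours mark cytosolic, mitochondrial and associated genes, and open circles mark an FDR of 0.05 or more. Cytosolic genes fill the upper end, from WARS1 at 2.15, and mitochondrial genes hold the lowest places, down to MARS2 at -0.85.

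The mitochondrial genes did not share this rise. Of the 11 tested, 1 rose, 5 fell and 5 did not pass the test, so that 9.1% rose and 45.5% fell, beside 29.3% and 23.9% of all tested genes. None had a log2FC over 1 in size on the deposited TPM with a pseudocount of 1 TPM, where 3.90% of all tested genes fell by more than that. Their median log2FC was -0.22. With single libraries left out it ranged from -0.30 without CDCA replicate 3 to -0.14 without CON replicate 3. On totals without the mtDNA-encoded mRNAs it was -0.36. MARS2, CARS2, IARS2 and TARS2 were among those that fell.

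MARS2 (ENSSSCG00000034494), the mitochondrial methionyl-tRNA synthetase, which also charges the initiator tRNA there, was listed at 3.74, 3.90 and 3.67 TPM in the control libraries, against 1.66, 1.25 and 2.10 TPM with CDCA. It had the largest fall of the 33 tested genes, with a ratio of 0.443 and a log2FC of -0.85 (with an SE of 0.13 and a limma FDR of 0.0019). The log2FC passed 1 in size with a pseudocount of 0.1 TPM (-1.16, limma FDR 0.0024), with the TPM rescaled to 1000000 (-1.03, limma FDR 0.0035) and with its highest transcript alone (-1.01, limma FDR 0.0029). That transcript averaged 0.67 TPM in CDCA and passed the limit of 1 TPM only through the CON libraries. CARS2 (ENSSSCG00000031757), for cysteine, was listed at 18.5, 20.5 and 19.7 TPM with PBS, and treated libraries gave 13.45, 11.2 and 10.55 TPM, a log2FC of -0.70 (with an SE of 0.09 and a limma FDR of 0.0010). In both genes the CDCA values were lower than any control value.

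IARS2 (ENSSSCG00000010823), for isoleucine, was the most abundant mitochondrial synthetase mRNA in both groups. It was listed at 52.4, 51.5 and 46.7 TPM among controls versus 33.8, 35.1 and 35.5 TPM after treatment, a log2FC of -0.51 (with an SE of 0.06 and a limma FDR of 0.00037). TARS2 (threonine) had a small fall with little spread, from 20.9 ± 0.39 TPM to a mean of 17.8 ± 0.32 TPM (SD, n = 3 each; limma FDR 0.0064).

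RARS2 (arginine) was the exception that rose, from 6.60, 7.28 and 6.55 TPM in CON to 9.48, 8.72 and 10.6 TPM in CDCA, a log2FC of 0.44 (limma FDR 0.0052). The call was lost when only its highest transcript was used (0.25, limma FDR 0.32). Its second highest transcript was at 0, 0 and 1.68 TPM in CON and 2.12, 2.35 and 3.35 TPM in CDCA. That transcript passed the limit of 1 TPM only through the CDCA libraries. WARS2 (tryptophan) was listed at 4.97, 5.56 and 3.78 TPM in the control libraries, against 4.91, 8.28 and 9.34 TPM with CDCA. The groups overlapped through CDCA replicate 1 (limma FDR 0.089), and without that library the log2FC was 0.78 (limma FDR 0.0096), against 0.53 with it. Leaving out any other library gave 0.37 to 0.63 and no call. Its highest transcript alone, with a log2FC of 1.26, had a limma FDR of 0.044 among the highest transcripts of all genes and 0.054 among all transcripts. HARS2 was at 8.60 ± 0.39 TPM in CON and 7.23 ± 1.1 TPM in CDCA (limma FDR 0.11). Without CDCA replicate 3, the highest of its group, its log2FC was -0.34 (limma FDR 0.017), and on totals without the mtDNA-encoded mRNAs it was -0.37 (limma FDR 0.027), against -0.23 in the main comparison and -0.15 (limma FDR 0.29) without CDCA replicate 1. EARS2, LARS2 and NARS2 had 95% intervals that included 0, and the interval of LARS2 was wide, from -0.59 to 0.25.

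**Figure D3:**
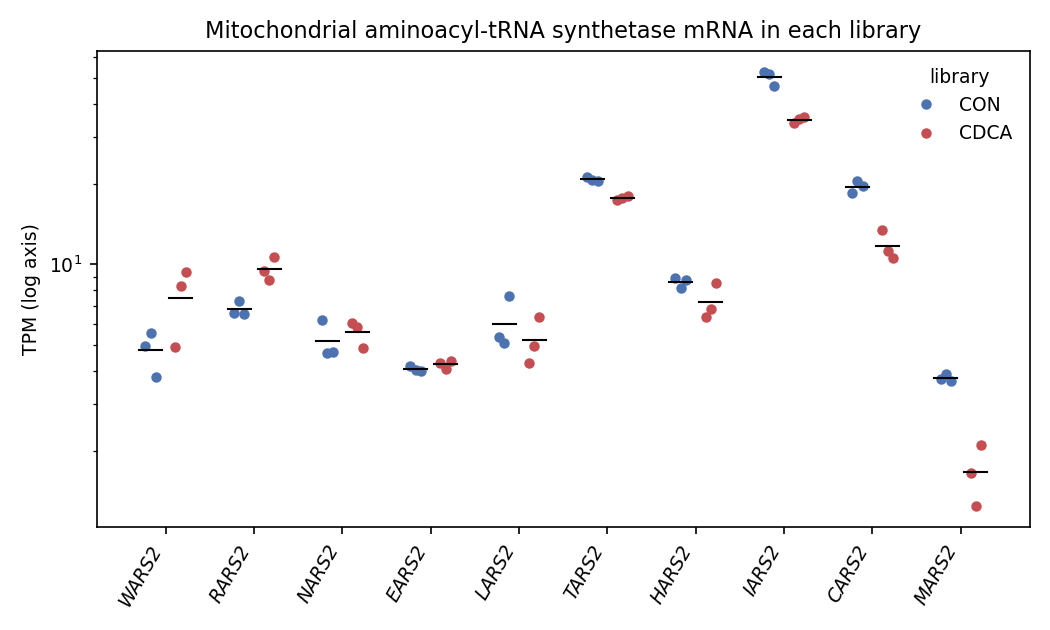
TPM (log axis) of 10 of the 11 tested mitochondrial genes in each library, ordered by log2FC from left to right; points are libraries and black bars are group means. On the right, MARS2, CARS2 and IARS2 had every CDCA point below every CON point.

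Summed over all 21 genes, the cytosolic synthetases held 884, 866 and 818 TPM in the CON libraries and 1492, 1496 and 1536 TPM in the CDCA libraries, a ratio of 1.76. SARS1, GARS1, WARS1 and KARS1 together made up 495 of the 652 TPM gained. The 17 mitochondrial genes held 141, 139 and 134 TPM in CON and 108, 110.1 and 115 TPM in CDCA, a ratio of 0.806. The ratio of the cytosolic to the mitochondrial sum, in which a scaling of the library cancels, went from 6.21 ± 0.071 (SD, n = 3) to 13.6 ± 0.24 (SD, n = 3). GARS1 and KARS1, which supply both compartments, were counted here only as cytosolic. Their means went from 38.2 to 121 TPM and from 149 to 215 TPM, so both sums and their ratio depend on that placement. These sums are descriptions and were not tested.

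The same comparison was made amino acid by amino acid. For 10 amino acids, a cytosolic and a mitochondrial gene were both tested, and the log2 ratio of their TPM was taken within each library, so that it too does not depend on library scaling. It was higher in CDCA with no overlap for 7 amino acids, lower with no overlap for arginine, and overlapping for histidine and glutamate. The levels of single genes did not overlap, among all tested genes, in 33.7% with CDCA higher and in 27.8% with CDCA lower, and no such share was computed for ratios. The ratios are descriptions and were not tested. With 3 libraries against 3, an exact two-sided permutation test on one of them could not go below p = 0.1.

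The widest shift was that of cysteine. CARS1 had 0.276 times the TPM of CARS2 in CON and 1.82 times in CDCA, and the log2 ratio moved from -1.86 ± 0.14 (SD, n = 3) to 0.87 ± 0.18 (SD, n = 3). For isoleucine and threonine, the cytosolic and the mitochondrial mRNA were near balance in CON, with log2 ratios of -0.29 ± 0.18 and -0.08 ± 0.060. In CDCA these ratios were 1.40 ± 0.13 and 1.04 ± 0.060 (SD, n = 3 each). The methionine pair moved by 1.78 on the log2 scale, as MARS1 rose and MARS2 fell. The tryptophan pair moved by 1.57, although WARS2 did not fall. Leucine and asparagine moved less, by 0.48 and 0.435, and CON replicate 3 lay apart from the other control libraries in the leucine pair, at 1.82 against 2.63 and 2.64. Without it the shift of the leucine pair was 0.21.

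Arginine went the other way. The log2 ratio of RARS1 to RARS2 was 2.79 ± 0.099 (SD, n = 3) in CON and 2.02 ± 0.13 (SD, n = 3) in CDCA. The glutamate pair, EPRS1 and EARS2, had the smallest shift, from 4.18 ± 0.070 to 4.21 ± 0.032 (SD, n = 3 each), and its sign turned without CON replicate 3 (-0.012).

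**Figure D4:**
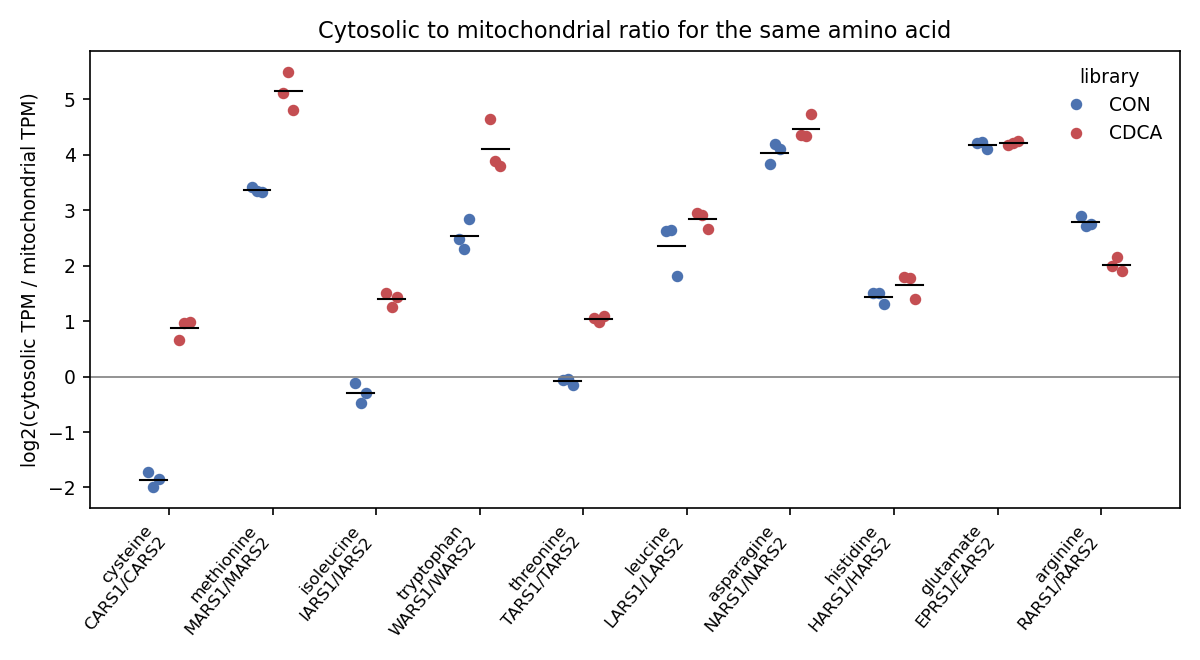
log2 ratio of cytosolic to mitochondrial TPM for the 10 amino acids with both genes tested, in each library; points are libraries, black bars are group means and the grey line marks equal TPM. From cysteine on the left to asparagine the CDCA points lie above the CON points, and for arginine on the right they lie below.

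Genes with several listed transcripts were also followed transcript by transcript, in a limma fit over the 12205 listed transcripts with a mean of at least 1 TPM. As the lines carry no transcript IDs, they are numbered here by their mean TPM within a gene. Of the 36 tested transcripts of cytosolic genes, 21 rose and 1 fell, while 23.1% of all tested transcripts rose and 18.7% fell. Of the 18 of mitochondrial genes, 1 rose and 5 fell. Transcripts with a mean under 1 TPM in 1 group passed the limit only through the other, and without them 20 cytosolic transcripts rose and 1 fell, and 0 mitochondrial transcripts rose and 4 fell.

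The transcripts of WARS1 were near equal in CON, at 13.6 ± 0.50 and 13.8 ± 0.59 TPM (SD, n = 3 each). Both rose, by ratios of 5.11 and 4.04. The first transcript of CARS1 rose from 3.69 to 11.6 TPM and the second from 1.27 to 4.96 TPM in group means. The third, at 0.43, 0.39 and 0 TPM in CON and 2.66, 3.02 and 3.30 TPM after CDCA, entered the test only through the CDCA libraries. The transcripts of KARS1 rose by like ratios, 1.46 and 1.42, as did those of NARS1, 1.45 and 1.47.

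IARS1 was mixed. Its first transcript was listed at 19.1, 18.6 and 18.1 TPM with PBS, and treated libraries gave 53.0, 45.1 and 50.3 TPM. The second rose by a similar ratio, 2.56, whereas the third was at 6.21, 4.93 and 5.24 TPM among controls versus 5.62, 4.35 and 4.84 TPM after treatment, and did not pass the test (limma FDR 0.45). In MARS1 the first transcript rose from 20.2 ± 3.8 TPM to a mean of 30.3 ± 4.5 TPM and the second by a ratio of 1.78, while the third, with a ratio of 1.03, had no call (limma FDR 0.91). In MARS2, the first transcript was at 2.37, 2.50 and 2.10 TPM in CON and 0.69, 0.35 and 0.96 TPM after CDCA, and so passed the limit only through CON, while the second, with a ratio of 0.693, did not pass the test (limma FDR 0.11).

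**Figure D5:**
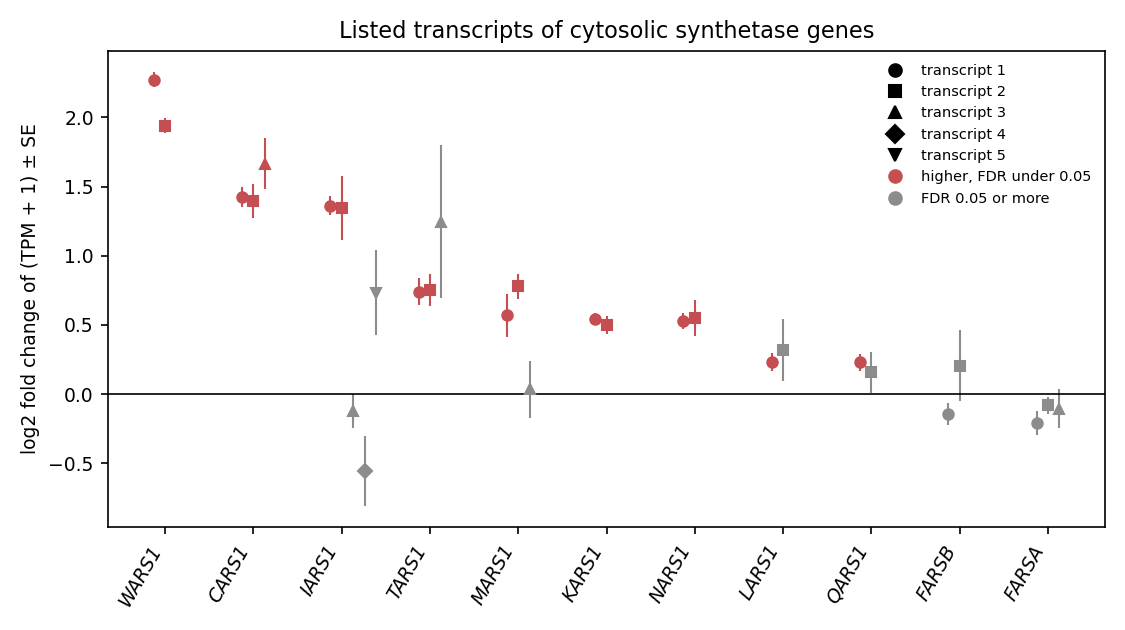
log2FC of (TPM + 1), CDCA over CON, with SE, of each tested transcript of the 11 cytosolic genes with more than 1 such transcript; marker shapes give the order by mean TPM, and red marks a rise with an FDR under 0.05. Both transcripts of WARS1 rose, while those of IARS1 spread from -0.55 to 1.36.

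The 9 genes that were not tested had low listed values. VARS1, the only valyl-tRNA synthetase of the cytosol, was listed at 0.96 to 1.41 TPM in CON and at 0.50 to 1.13 TPM in CDCA. It is an enzyme that every cell needs, so these listed values were not read as its level in the cell. PARS2 was listed at 0 TPM in all 6 libraries. TARS3 did not exceed 0.02 TPM. SARS2, the partner of SARS1, was at 0.47, 0.22 and 0.96 TPM in the control libraries, against 0.39, 0.31 and 0 TPM with CDCA. YARS2 lay between 0.60 and 1.26 TPM, and AARS2, FARS2 and VARS2 did not exceed 1.97 TPM. In each of the 9, the groups overlapped. For serine, alanine, tyrosine, phenylalanine, valine and proline, among others, the ratio of cytosolic to mitochondrial mRNA could therefore not be followed.

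Other genes that make, carry and use charged tRNA were counted in lists written from general knowledge, and each count is to be read against the 29.3% of all tested genes that rose and the 23.9% that fell. Among 8 elongation factor genes, all tested, 5 rose and 1 fell. EEF1A1, which brings charged tRNA to the ribosome, rose from 4873 ± 174 TPM to a mean of 9855 ± 264 TPM (SD, n = 3 each), a log2FC of 1.02 (limma FDR 1e-05). On the same scale EEF1B2, part of its exchange factor, rose by 0.78 and EEF1A2 by 0.85. EEF1A1 has many near-identical copies in mammalian genomes, which makes its single value uncertain. EIF5A fell, with a log2FC of -0.45. EEF2, with 1 line in the table, was listed at 0, 0 and 5.18 TPM with PBS, and treated libraries gave 3.18, 3.94 and 2.81 TPM. It did not pass the test (limma FDR 0.18).

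In mitochondria, glutaminyl-tRNA is made by an amidotransferase of QRSL1, GATB and GATC. Of 10 genes for this route and for mitochondrial initiation and elongation, 2 rose and 4 fell (29.3% and 23.9% of all tested genes), or 3 fell without GATC. QRSL1 rose from 19.2 ± 1.4 TPM to a mean of 22.6 ± 1.2 TPM (limma FDR 0.030), but had no call on totals without the mtDNA-encoded mRNAs (limma FDR 0.40) or with libraries scaled to the same median ratio (limma FDR 0.055). GATC was at 1.46, 3.54 and 0.91 TPM in CON and 0.03, 0.02 and 0.08 TPM after CDCA, and entered the test only through the CON libraries. TUFM, the mitochondrial counterpart of EEF1A1, fell from 104 ± 4.8 TPM to a mean of 73.0 ± 3.1 TPM (limma FDR 0.00025), while EEF1A1 rose. MTIF2, the initiation factor, rose by 0.45 on the log2 scale.

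Among 12 tested gene IDs for the maturation of mitochondrial tRNA, 3 rose and 3 fell (29.3% and 23.9% of all tested genes). ELAC2, which trims the ends of tRNA precursors in the nucleus and in mitochondria, fell from 10.9 ± 1.9 TPM to a mean of 2.97 ± 0.91 TPM (SD, n = 3 each; log2FC -1.60, limma FDR 0.00067). GTPBP3, which modifies the wobble base, fell by 0.69 on the log2 scale. HSD17B10, a subunit of mitochondrial RNase P, had a log2FC of -0.62 that did not pass the test (limma FDR 0.20). Of 19 tested genes for tRNA splicing, processing and export, 3 rose and 8 fell (29.3% and 23.9% of all tested genes). XPOT, the export receptor for tRNA, rose from 36.5 ± 2.2 TPM to a mean of 68.7 ± 5.3 TPM (SD, n = 3 each; limma FDR 0.00010). The RNase P subunits POP1 and POP5 fell, by 0.82 and 0.71 on the log2 scale.

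RNA polymerase III, which transcribes tRNA genes, had 22 tested genes with its factors, of which 3 rose, 5 fell and 14 did not pass the test (29.3% and 23.9% of all tested genes rose and fell). Their median log2FC was 0.01, and -0.12 on totals without the mtDNA-encoded mRNAs. On those totals 1 rose and 6 fell, beside 1750 rises and 2781 falls among all 8707 tested genes. The largest value in this list was that of POLR3C, which rose from 8.91 ± 2.3 TPM to a mean of 16.8 ± 1.5 TPM (SD, n = 3 each, limma FDR 0.0045). LARP7 fell, with a log2FC of -0.48 (limma FDR 0.037), and GTF3C3, listed at 0 in 3 libraries, did not pass the test (limma FDR 0.49). Of 7 tested editing and deacylation factors, AARSD1 and PRORSD1 included, 2 rose and 4 fell (1 and 4 on those totals), with a log2FC of -0.54 for MTRFR, which acts on stalled mitochondrial ribosomes. Of 4 tested genes for selenocysteine tRNA, 1 rose and 1 fell: SECISBP2, which binds the selenocysteine insertion element (log2FC 0.46), and EEFSEC, the elongation factor for this tRNA (log2FC -0.66). SEPSECS, which completes selenocysteine on the tRNA that SARS1 charges, was at 1.85 ± 0.32 TPM in CON and 2.28 ± 0.74 TPM in CDCA and did not pass the test.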

How the data were processed

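RNA from 3 CON and 3 CDCA samples was sequenced on an Illumina instrument. TPM values come from the authors, whose methods name RSEM for abundances; the deposited table has lines of TPM per gene ID and no read counts. The submitters' processing notes also name Bowtie 0.12.2 and the mouse build mm10, with no role given; the study states that reads were filtered for quality and mapped, while the pig annotation and any filter on the lines of the table are not given in the sources used here, and no coordinates were used. Lines with the same gene ID were added up. A reference table of Ensembl IDs named 15029 gene IDs, the deposited table a further 2472 and NCBI gene IDs 573.

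Groups were compared on log2(TPM + 1) by limma 3.58.1 under R 4.3.3, using lmFit and a trended eBayes without covariates. The fit took the 8708 genes averaging 1 TPM or more, and p-values were adjusted over all of them by Benjamini-Hochberg. The threshold was an FDR of 0.05. The authors' own test, edgeR, takes counts and could not be run on TPM. The steps were checked on simulated data. Genes, lists and tests were chosen with earlier results of these data known. By rule, values in every library are given for called synthetase genes with a log2 fold change over 1 in size, for WARS1, GARS1 and CARS1, for their partners of the same amino acid, and for members of the complex without a call. Other genes shown by library were picked after their values were seen. From each other list, the 3 tested genes with the largest change were named, and those whose role was needed. Promoter and protein sequences were not analysed here, and a few genes that enter the counts are not reported here by name.

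The replicate numbers gave no sign of pairing: over tested genes, the correlation of deviations from the group means between same-numbered libraries was -0.04, -0.09 and -0.05. The labels do not say whether the samples were paired, and with 3 libraries in each group these values cannot settle it. Alternatives were another pseudocount, no filter, other scalings, the highest listed transcript, the replicate number as a block and each library left out. Alternatives chosen after seeing the data were a split of the genes by the letter of the rule, a rescaling to 1000000 TPM, each transcript by itself, the other alternatives applied to the count with the fold limit, the other lists under the other scalings, counts without features under 1 TPM in 1 group, and each library left out of the pair ratios.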

Additional observations from a re-analysis of the deposited data

How the results depend on the processing

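The number of reads behind the TPM of a gene is unknown, which limits what can be said of genes listed under 1 TPM, and VARS1 and other genes with low listed values could not be compared. A limit on the log2 fold change of over 1 in size left 5 cytosolic genes higher and 0 lower, and 0 mitochondrial genes higher and 0 lower, against 12, 1, 1 and 5 without it. On totals without the mtDNA-encoded mRNAs, 11 cytosolic genes were higher and 4 lower, where 1750 of all 8707 tested genes were higher and 2781 lower. On these totals the medians of the cytosolic and mitochondrial genes were 0.40 and -0.36, and the ratios of their summed TPM were 1.58 and 0.724. EPRS1 (-0.066), EARS2 (-0.076) and NARS2 (-0.037) changed sign there, all without a call. With libraries scaled to the same median ratio, 12 cytosolic genes were higher and 3 lower. Of all 8718 tested genes, 2299 were higher and 2357 lower there. With the highest listed transcript, the ratio of the mitochondrial sums was 0.765 and NARS2 was at -0.33. Split by the letter of the rule, which puts AIMP2 with the mitochondrial genes and the other associated genes with the cytosolic ones, 2 of 21 cytosolic genes were lower. Leaving out single libraries, 1 to 2 cytosolic genes were lower (2 without CON replicate 3 or CDCA replicate 2) and 1 to 2 mitochondrial genes higher (2 without CDCA replicate 1); HARS1 ranged from -0.0925 to 0.0113, the latter without CON replicate 1. In the other lists, both other scalings moved the counts of rises and falls by 0 to 2 genes each. MARS2 passed the fold limit with a pseudocount of 0.1 TPM, with the TPM rescaled to 1000000 and with its highest transcript, and WARS2 with its highest transcript. The highest transcript of MARS2 passed the limit of 1 TPM only through the CON libraries. The count of cytosolic genes higher by a log2 fold change over 1 was 4 to 6 over the alternatives run. With the replicate number as a block, which the check of the pairing did not warrant, 12 cytosolic genes were higher and 1 lower, and 1 mitochondrial gene was higher and 5 lower, as without it. For 405 of 429 combinations of a gene and an alternative, the direction and the side of the threshold stayed the same; the cause of the other changes was not tested. The promoter and protein comparisons that had been planned were not run, since no table of such sequences was used here.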
